A study of Mus musculus with 3 samples.

Results

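Accessibility at 9 genes that mark embryonic mesenchyme was followed in single-nucleus ATAC-seq (snATAC-seq) of whole mouse embryo sections: Twist1, Twist2, Prrx1, Prrx2, Pdgfra, Pdgfrb, Tbx15, Foxc2 and Meox1. They are 9 of the 21602 protein-coding genes counted, chosen as known mesenchyme genes with earlier results of these data in view, so counts of how many of them differ are a description. The 3 libraries came from wild-type (WT) C57BL/6JRj embryos of stages E12.5, E13.5 and E15.5, littermates of embryos used for spatial maps, with 1 library per stage. For each stage a few thick frozen sections were dissociated, and the nuclei were stained with 7-AAD, sorted and processed with the 10x droplet kit for ATAC. The labels do not say how many embryos a library holds, and every comparison between stages lacks a replicate check.

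ATAC-seq uses the transposase Tn5, which inserts adapters where DNA is open, so the fragments of a locus measure its accessibility and not its expression. Each gene was read in 3 ways: the gene window (gene body plus 2 kb upstream), the promoter (1000 bp before to 100 bp after the start site) and the 50 kb flanks on either side of the gene window. Levels are unique fragments scaled to the total fragments of the same nuclei (CPM). The authors sorted the 1879 nuclei of their table into 12 numbered clusters. Clusters 2 and 4 were left out, which kept 1450 nuclei in 10 clusters, 463 of them in clusters 1 and 3.

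Mesenchyme is the loose embryonic tissue that gives rise to connective tissue, cartilage, bone and smooth muscle. Twist1 and Twist2 are basic helix-loop-helix factors that pair with E proteins on E-box DNA, and Prrx1 and Prrx2 are paired-related homeodomain factors of limb and face mesenchyme. Pdgfra and Pdgfrb are receptor tyrosine kinases for platelet-derived growth factors, with Pdgfra typical of fibroblast-like mesenchyme and Pdgfrb of mural cells as well. Tbx15, a T-box factor, Foxc2, a forkhead factor, and Meox1, a homeodomain factor, act in skeletal, vascular and somite development.

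The label was checked first against 10 mesenchyme genes outside the list. In cluster 1, 9 of these 10 stood at least 1.5-fold above the mean of the other clusters, and Col3a1, Col1a1, Col1a2 and Lum were among its leading 10 genes, so it is called mesenchyme-like. Cluster 3 had 8 of 10 raised, but none was among its leading 10 genes, which included Vmn1r42, Olfr30 and Olfr60, receptor genes of the nose. Cluster 3 therefore has no cell type name here. By the same kind of list, clusters 0 and 6 were neuron-like, 9 neural progenitor-like, 10 muscle-like, and 5 and 11 erythroid-like, while 7 and 8 mixed several lists. Clusters 0 and 6 had all 6 neuron markers raised but 0 among their leading 10 genes, and are called neuron-like because genes such as Gad2 and Nefl in cluster 0 and Slc17a6 and Neurod2 in cluster 6, named after the values were seen, are neuronal. Cluster 6 also had 4 of 6 neural progenitor markers raised, and cluster 10 had 3 of 10 mesenchyme markers raised.

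Depth and promoter share differed between these clusters. The libraries held 8603028, 66925016 and 39513357 fragments in nuclei, in stage order. Cluster 3 was the deepest, with a median of 105158 fragments per nucleus against 57306 in cluster 1, and 6.44% of its fragments lay at promoters of protein-coding genes, against 12.7% in cluster 1. Promoter levels in CPM are scaled to all fragments and do not allow for such differences in promoter share between clusters. Cluster 11 entered the fits with a single sum, 35 nuclei of E13.5 with a median of 12478 fragments, and 32.9% of the fragments of that cluster lay at promoters. It counts as much as any other cluster in a fitted difference, so the fitted gene window and promoter differences of the 9 genes against the rest are also given without cluster 11, a choice made after seeing the data. The E12.5 sum of cluster 1 came from 10 nuclei and held between 13 fragments for Foxc2 and 70 for Prrx2 in the gene window. At the promoters it held between 2 fragments for Tbx15 and Meox1 and 20 for Twist1.

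All 9 genes were higher in clusters 1 and 3 than in the other 8 clusters over the gene window. The test was edgeR's quasi-likelihood test on 24 sums per cluster and library with the library as a term, adjusted over all genes by Benjamini-Hochberg. The median log2 difference of the 9 genes was 1.43, beside 0.12 over all 19697 genes tested, of which 17.1% were called higher. Without cluster 11 all 9 were still called, beside 5.32% of all genes, and the medians were 1.08 and -0.02. Since the authors built the clusters on these very nuclei, the test is a description of the clusters and not independent evidence.

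**Figure D1:**
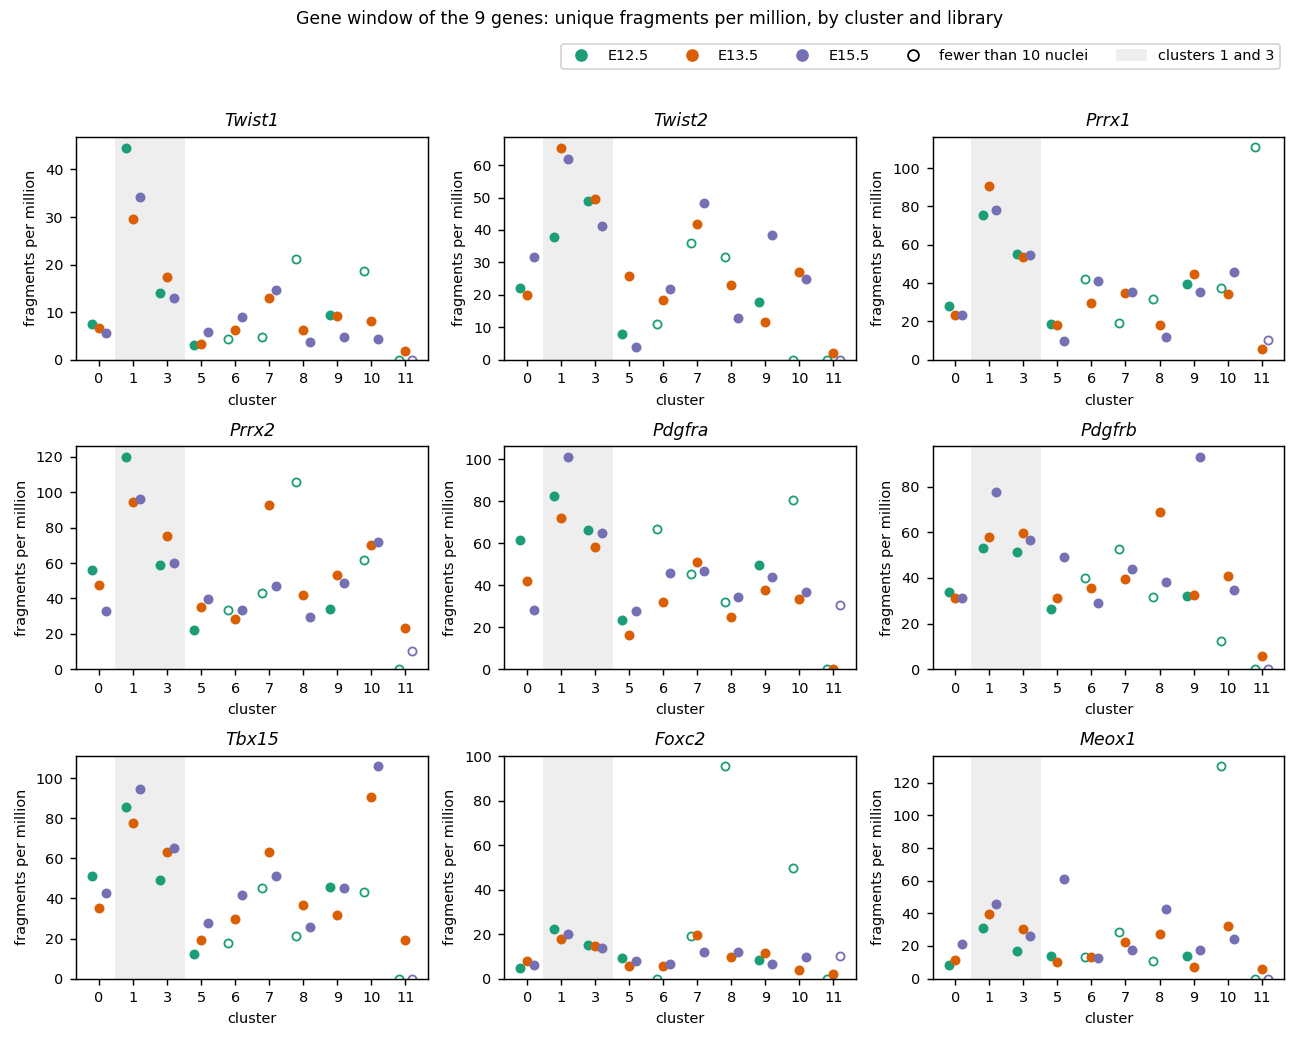
Level in CPM in the gene window of each gene (vertical axis) in the 10 clusters (horizontal axis), 1 point per library coloured by stage. Open points are sums of fewer than 10 nuclei, which the tests left out. Cluster 1 lies above the filled points of the other clusters for Twist1, Prrx1, Prrx2 and Pdgfra, and cluster 10 overlaps it for Tbx15.

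Twist1 (chr12:33957671-33959829, plus strand, mm10) is a short gene whose window of 4159 bp held no other gene. Its gene window level in cluster 1 was 44.6, 29.6 and 34.1 CPM in stage order, from E12.5 to E15.5. In cluster 3 it was 14.1, 17.3 and 13 CPM. Across the 18 sums of the other clusters it ran from 1.94 to 14.6 CPM with a median of 6.26. Every value of cluster 1 thus lay above every other cluster, while cluster 3 overlapped cluster 7. The pooled level of clusters 1 and 3 was 3.29 times that of the rest (exact 95% interval 2.94 to 3.68, counting error only). Such pooled ratios count all nuclei of the groups, including sums of fewer than 10 nuclei. In the fit, the log2 difference was 2.11 ± 0.21 (SE, adjusted p = 2.03e-09, edgeR), and 1.81 ± 0.18 without cluster 11.

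Most of this difference lay at the promoter, where clusters 1 and 3 together had 14.4 CPM and the rest 2.62, against 22.2 and 6.74 CPM over the whole gene window. At the Twist1 promoter, cluster 1 had 34.3, 20.6 and 26.7 CPM in stage order, cluster 3 had 7.77, 9.48 and 6.42, and the other clusters ran from 0 to 8.25. The fitted log2 difference was 3.06 ± 0.20 (adjusted p = 1.83e-46, edgeR), and 2.81 ± 0.18 without cluster 11. In 300 bp steps the highest value of cluster 1 was 13.4 CPM just upstream of the start site, where cluster 3 had 4.08 and the rest 1.30. The 250 bases before the start site are shown because they lie in this peak. The sequence is from the RefSeq promoter table (GRCm38.p6), plus strand, chr12:33957421-33957670, and none of the motifs searched here occurred in it, so no base is in capitals.
Twist1 upstream: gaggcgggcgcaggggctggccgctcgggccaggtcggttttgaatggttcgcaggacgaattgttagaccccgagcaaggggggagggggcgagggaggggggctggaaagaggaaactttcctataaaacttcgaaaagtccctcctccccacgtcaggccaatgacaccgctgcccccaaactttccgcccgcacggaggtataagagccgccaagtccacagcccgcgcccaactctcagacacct

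The motifs searched, each on both strands, were the E-box CANNTG, bound by basic helix-loop-helix factors, the homeodomain core TAATTA, the forkhead motif TGTTTAC (or GTAAACA) and the T-box motif GGTGTG (or CACACC). They did not overlap each other in the sequences shown. Of 32851 entries of the promoter table, 66.2% held an E-box in the 250 bases before the start, 4.84% TAATTA, 3.17% the forkhead motif and 16.3% the T-box motif. The table held 5 of the 9 genes, of which 1 had an E-box. A match is a run of letters and not evidence of binding.

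Twist2 (chr1:91801461-91848028, plus strand), a close relative of Twist1, was open in cluster 7 as well. Its gene window level was 37.8, 65.4 and 61.8 CPM in cluster 1 and 48.9, 49.4 and 41.2 CPM in cluster 3, in stage order. The other clusters ran from 1.94 to 48.4 CPM, with cluster 7 highest. Clusters 1, 3 and 7 overlapped, and cluster 9 reached the lowest value of cluster 1 with 38.5 CPM at E15.5. On the log2 scale the fit gave 1.79 ± 0.21 (adjusted p = 6.43e-08, edgeR) and 1.26 ± 0.17 without cluster 11. At the promoter only cluster 1 separated, with 10.3, 8.98 and 9.65 CPM. Cluster 3 had 4.03, 3.52 and 4.16 there, below both sums of cluster 7, 5.21 and 5.81, the highest elsewhere. There the log2 difference was 2.95 ± 0.35 (adjusted p = 3.96e-15, edgeR), or 2.24 ± 0.28 without cluster 11.

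Prrx1 (chr1:163245119-163313710, minus strand) was the only gene of the 9 whose gene window set both clusters apart from all others. Cluster 1 had 75.5, 90.9 and 78.3 CPM and cluster 3 had 55.2, 53.8 and 54.8 CPM, in stage order. The 18 other sums ran from 5.81 to 46 CPM with a median of 28.8, so both clusters lay above all of them. How many of all genes show this for both clusters was not counted. For cluster 1 alone it was 0.518% of gene windows. The fitted log2 difference was 1.71 ± 0.14 (adjusted p = 6.36e-11, edgeR), or 1.35 ± 0.12 without cluster 11. At the promoter, cluster 1 had 5.15, 6.83 and 9.49 CPM and cluster 3 had 3.74, 3.39 and 2.83, while neural progenitor-like cluster 9 reached 6.37. The log2 difference there was 2.85 ± 0.37 (adjusted p = 1.68e-12, edgeR), or 2.16 ± 0.29 without cluster 11.

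Distal regions were ranked in E13.5 alone, as the 300 bp step more than 1 kb from any start site with the highest CPM difference between clusters 1 and 3 and the rest, and then read in the other libraries. The leading region of Prrx1 was intergenic, 104 kb downstream of the start site at chr1:163209219-163209518. In E15.5 it held 19 fragments from clusters 1 and 3 and 8 from the rest, a ratio of 5.58 (exact interval 2.33 to 14.7). Cluster 1 had 2.89 CPM there, while cluster 3, with 0.189, lay below the rest, with 0.296. In E12.5 it held 4 and 0. Of all distal steps of a locus, 22.6 to 42.8% were higher in clusters 1 and 3 in both E12.5 and E15.5. The sequence of the Prrx1 region is shown on the strand of the gene because the pooled difference recurred in E15.5, a library that did not choose it. There it recurred in cluster 1 and not in cluster 3. Capitals mark the motifs searched, here 1 E-box and 1 forkhead motif.
Prrx1 distal region: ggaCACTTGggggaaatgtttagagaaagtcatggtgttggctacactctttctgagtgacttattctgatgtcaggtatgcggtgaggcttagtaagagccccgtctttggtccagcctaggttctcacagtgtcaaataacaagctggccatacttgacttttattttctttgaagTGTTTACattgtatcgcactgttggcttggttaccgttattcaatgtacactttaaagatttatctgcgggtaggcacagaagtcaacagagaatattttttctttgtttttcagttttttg

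Prrx2 (chr2:30834972-30881251, plus strand) set cluster 1 apart but not cluster 3. Its gene window level was 120, 94.6 and 96.3 CPM in cluster 1, and 58.7, 75.1 and 59.9 CPM in cluster 3. Cluster 7 had 92.9 CPM at E13.5 but 47.2 at E15.5, and muscle-like cluster 10 had 70.0 at E13.5 and 72.0 at E15.5. Cluster 1 stayed above all 18 other sums, but cluster 3, with a mean of 64.6 CPM, lay below the means of clusters 7 and 10, 70.1 and 71.0 CPM. As a log2 difference, the fit gave 1.17 ± 0.14 (adjusted p = 7.88e-08, edgeR), or 0.96 ± 0.13 without cluster 11.

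The annotated start of Prrx2 used here lies 10.4 kb upstream of the start in the RefSeq table, and its promoter difference was the smallest of the 9. At the upstream start the log2 difference was 1.84 ± 0.45 (adjusted p = 0.000708, edgeR). It was 1.07 ± 0.33 without cluster 11, and was not called without E13.5 (adjusted p = 0.286) or without E15.5 (adjusted p = 0.112). At the RefSeq start (chr2:30844367-30845466), read after seeing the data, clusters 1 and 3 had 3.52 CPM and the rest 1.89, a ratio of 1.86 (exact interval 1.46 to 2.37). Within 10 kb of the upstream start, 5 of 67 steps had at least 2 CPM in cluster 1 and at least 3 times the level of the rest. They lay on either side of that start rather than on it, from 1.45 kb upstream to 1.85 kb downstream. The most open step, 6.55 kb upstream, had 6.998 CPM in cluster 1, 3.866 in cluster 3 and 7.125 in the rest. The leading distal region, chr2:30833672-30833971, was intergenic, 1.15 kb upstream, and held 41 fragments from clusters 1 and 3 and 10 from the rest in E15.5, a ratio of 9.62 (exact interval 4.74 to 21.5). In E12.5 it held 11 and 0, and for that reason it is shown. Capitals mark 1 TAATTA and 2 E-boxes.
Prrx2 distal region: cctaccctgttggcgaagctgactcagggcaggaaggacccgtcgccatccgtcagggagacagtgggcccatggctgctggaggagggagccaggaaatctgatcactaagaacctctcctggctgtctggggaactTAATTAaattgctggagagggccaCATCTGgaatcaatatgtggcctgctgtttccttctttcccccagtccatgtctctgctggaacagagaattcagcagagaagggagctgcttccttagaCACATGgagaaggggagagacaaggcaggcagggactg

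Pdgfra (chr5:75152292-75198215, plus strand), the receptor of fibroblast-like mesenchyme, was open across a broad region. Its gene window level was 82.4, 72.0 and 101 CPM in cluster 1, and 66.2, 58.2 and 64.8 CPM in cluster 3. The other clusters ran from 0 to 61.7 CPM, the highest being neuron-like cluster 0 at E12.5. Cluster 0 had 61.7, 42.1 and 28.0 CPM in stage order, and at E12.5 the ratio of clusters 1 and 3 to the rest was 1.34 (exact interval 1.12 to 1.60). The fitted log2 difference of 2.36 ± 0.22 (adjusted p = 7.63e-10, edgeR) rests on cluster 11, which held 0 Pdgfra fragments among 516395 (up to 5.81 CPM by the limit of 3 counts), so it depends on the prior count of the fit. Without cluster 11 it was 1.08 ± 0.13 (adjusted p = 4.18e-07), beside a pooled ratio of 2.12 (exact interval 2.01 to 2.24).

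At the Pdgfra promoter, cluster 1 had 13.7, 8.15 and 16.1 CPM and cluster 3 had 6.33, 6.03 and 5.86. The highest other sum was 5.64, so all 6 sums of clusters 1 and 3 lay above all 18 others. Of 15593 promoters tested, 0.0128% showed this, Pdgfra included. The log2 difference was 3.03 ± 0.30 (adjusted p = 8.00e-22, edgeR) and 2.28 ± 0.23 without cluster 11. Within 10 kb of the start site, 18 of 67 steps had at least 2 CPM in cluster 1 and at least 3 times the level of the rest, from 3.85 kb upstream to 3.65 kb downstream, against 0 to 6 steps for the other 8 genes. The leading distal region, chr5:75148892-75149191, was intergenic, 3.25 kb upstream, with 38 fragments against 18 in E15.5 (ratio 4.96, exact interval 2.76 to 9.22) and 7 against 1 in E12.5. It is shown as part of this broad region, with 2 E-boxes and 1 T-box motif in capitals.
Pdgfra distal region: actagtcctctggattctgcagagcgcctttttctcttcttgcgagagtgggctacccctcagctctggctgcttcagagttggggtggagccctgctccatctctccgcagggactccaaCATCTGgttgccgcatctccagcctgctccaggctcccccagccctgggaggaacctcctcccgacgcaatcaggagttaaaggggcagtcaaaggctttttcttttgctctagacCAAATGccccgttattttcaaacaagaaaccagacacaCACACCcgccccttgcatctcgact

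**Figure D2:**
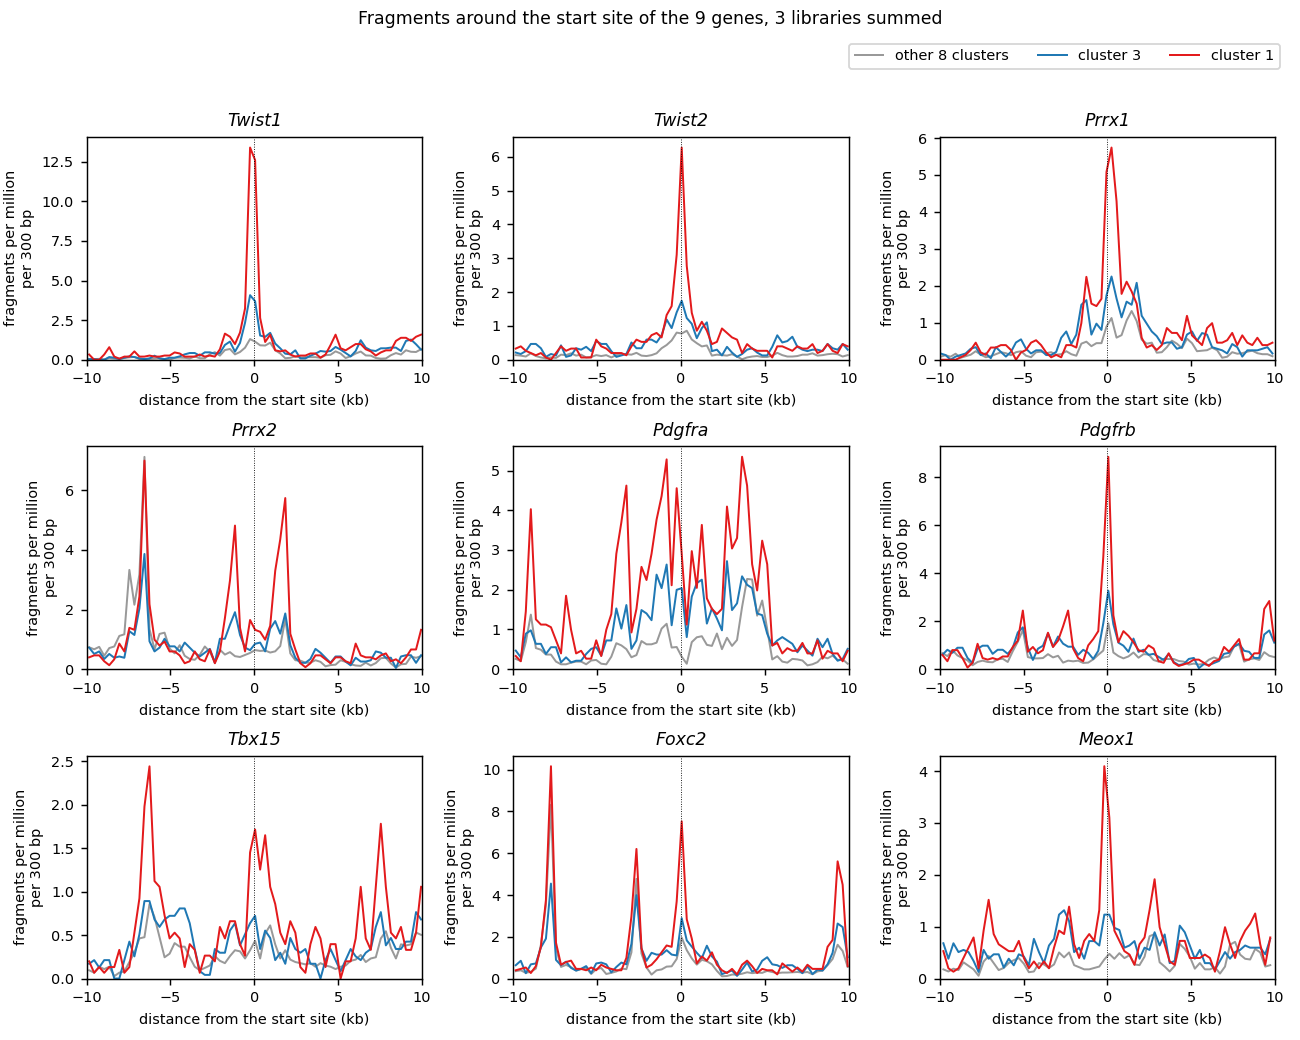
Level in CPM per 300 bp (vertical axis) within 10 kb of the start site of each gene (horizontal axis, upstream to the left), 3 libraries summed, for cluster 1 (red), cluster 3 (blue) and the other 8 clusters (grey). Twist1, Twist2, Pdgfrb and Meox1 show a single high peak of cluster 1 at the start site, Pdgfra a broad region of many peaks, and Prrx2 peaks on either side of the start.

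Pdgfrb (chr18:61045150-61085061, plus strand), the receptor shared with mural cells, was open in clusters 8 and 9 too. The level was 53.2, 58.1 and 77.7 CPM in cluster 1, and 51.5, 59.8 and 56.7 CPM in cluster 3. Cluster 9 reached 93.1 CPM at E15.5 against 31.9 and 32.4 at the earlier stages, and cluster 8 reached 69.1 at E13.5. Cluster 8 had 7 of 7 endothelial, 5 of 5 hepatocyte and 4 of 5 white blood cell markers raised, and the liver genes Afp and Alb led it. Clusters 1, 3, 8 and 9 overlapped. The pooled ratio of 1.62 (exact interval 1.53 to 1.71) was the smallest of the 9, and the fitted log2 difference was 1.14 ± 0.17 (adjusted p = 5.41e-06, edgeR), or 0.73 ± 0.15 without cluster 11. At the promoter, cluster 1 had 10.3, 10.1 and 15.1 CPM, above the highest other sum of 8.77, and cluster 3 had 3.74, 3.86 and 7.18. There the log2 difference was 2.56 ± 0.30 (adjusted p = 7.67e-15, edgeR), or 1.77 ± 0.22 without cluster 11. Its leading distal region lay in an intron 9.65 kb downstream of the start, with a ratio of 2.35 (exact interval 1.22 to 4.52) at E15.5 and 1.75 (0.341 to 11.3) at E12.5. Mural cell genes were read beside it: 4 of 5 were called higher in clusters 1 and 3, and 2 of 5 without cluster 11, beside 17.1% and 5.32% of all genes. Their part in the Pdgfrb result was not tested.

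Tbx15 (chr3:99240381-99354259, plus strand) had its highest level outside clusters 1 and 3. Muscle-like cluster 10 had 90.5 CPM at E13.5 and 106 at E15.5. Cluster 1 had 85.8, 77.9 and 94.7 CPM, which overlapped cluster 10, and cluster 3 had 49.2, 63.2 and 65.4. The remaining sums reached at most 63.4 CPM, in cluster 7. The fitted log2 difference was 1.08 ± 0.13 (adjusted p = 1.36e-07, edgeR), or 0.87 ± 0.12 without cluster 11. Its gene window overlaps Wars2, so some of its fragments count for both genes. The promoter was the least accessible of the 9, with 3.43, 2.99 and 2.89 CPM in cluster 1 and 0.863, 1.90 and 1.32 in cluster 3. The other clusters reached at most 2.38, below every value of cluster 1. The E12.5 value of cluster 1, 3.43 CPM, came from only 2 fragments, under the limit of 3 counts. The log2 difference there was 2.13 ± 0.53 (adjusted p = 0.000828, edgeR), or 1.48 ± 0.41 without cluster 11. The leading distal region of Tbx15 did not stand apart at E15.5, where its ratio was 0.925 (exact interval 0.447 to 1.80), and the same held for Twist1 with 0.978 (0.417 to 2.12). For Twist2 it was 2.11 (0.760 to 5.79), which includes 1. At E12.5 the Twist2 region held 0 fragments from clusters 1 and 3 against 3 from the rest. The region of Tbx15 held 4 against 1 at that stage, and the region of Twist1 held 2 against 1.

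Foxc2 (chr8:121116171-121118895, plus strand), a short intronless forkhead gene, had 22.3, 18 and 19.9 CPM in cluster 1 and 15.2, 14.7 and 13.6 CPM in cluster 3. Cluster 7 reached 19.5 CPM at E13.5 and overlapped both. The fit put the log2 difference at 1.43 ± 0.23 (adjusted p = 1.18e-05, edgeR), or 1.1 ± 0.20 without cluster 11, and it was not called without E13.5 (1.04, adjusted p = 0.112). At the promoter, cluster 1 had 8.58, 9.10 and 11.1 CPM, above the highest other sum of 7.71, and cluster 3 had 5.18, 5.15 and 4.16. The log2 difference there was 2.33 ± 0.31 (adjusted p = 1.27e-11, edgeR), or 1.5 ± 0.22 without cluster 11. The leading distal region, chr8:121125371-121125670, was intergenic, 9.35 kb downstream of the start. It held 17 fragments against 7 in E12.5 (ratio 2.56, exact interval 1.01 to 7.29) and 46 against 55 in E15.5 (1.96, 1.30 to 2.96), the only leading region besides those of Prrx2 and Meox1 whose interval stayed above 1 in both. It is shown for that reason and held 2 E-boxes. At E15.5 cluster 1 had 5.79 CPM there, while cluster 3, with 1.89, lay below the rest, with 2.04.
Foxc2 distal region: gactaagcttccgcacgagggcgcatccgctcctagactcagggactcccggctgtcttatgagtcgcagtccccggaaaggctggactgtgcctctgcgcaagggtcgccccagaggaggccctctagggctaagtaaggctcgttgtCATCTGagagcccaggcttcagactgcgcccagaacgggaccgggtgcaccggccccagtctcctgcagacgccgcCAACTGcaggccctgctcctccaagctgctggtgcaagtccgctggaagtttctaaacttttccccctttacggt

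Meox1 (chr11:101877510-101894374, minus strand), a homeodomain gene of the somites, had 30.9, 39.3 and 45.5 CPM in cluster 1 and 17, 30.3 and 25.9 CPM in cluster 3. Erythroid-like cluster 5 reached 61.0 CPM at E15.5, from 10 nuclei, against 14.1 and 10.4 earlier, and cluster 8 had 42.6 at E15.5. Clusters 5, 8 and 10 overlapped cluster 1. At E12.5 the levels lay close: clusters 1 and 3 together had 19.0 CPM and the rest 18, a ratio of 1.05 (exact interval 0.758 to 1.46). When the sums of under 10 nuclei were dropped, as chosen later with the values known, the rest had 11.8 CPM and the ratio was 1.61 (1.07 to 2.45). The pooled ratio was 2.12 (1.91 to 2.35) at E13.5 and 1.62 (1.43 to 1.84) at E15.5. The fitted log2 difference was 1.15 ± 0.22 (adjusted p = 0.000136, edgeR), or 0.88 ± 0.19 without cluster 11, and was not called without E13.5 (0.74, adjusted p = 0.220).

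At the Meox1 promoter, cluster 1 had 3.43, 7.07 and 6.75 CPM and cluster 3 had 3.16, 3.11 and 2.08, while the other sums had a median of 0.720 and reached 3.92, in cluster 10. The log2 difference was 3.15 ± 0.41 (adjusted p = 2.20e-12, edgeR), or 2.53 ± 0.34 without cluster 11. With cluster 11 this was the largest fitted promoter difference of the 9, but without it that of Twist1 was larger (2.81), and the pooled promoter ratio was also larger for Twist1. Meox1 also had a distal region that recurred, intergenic and 64.0 kb downstream of the start at chr11:101830210-101830509. It held 35 fragments from clusters 1 and 3 against 23 in E15.5 (ratio 3.57, exact interval 2.05 to 6.33) and 9 against 1 in E12.5 (9.48, 1.31 to 415). It is printed on the minus strand, with 3 E-boxes in capitals.
Meox1 distal region: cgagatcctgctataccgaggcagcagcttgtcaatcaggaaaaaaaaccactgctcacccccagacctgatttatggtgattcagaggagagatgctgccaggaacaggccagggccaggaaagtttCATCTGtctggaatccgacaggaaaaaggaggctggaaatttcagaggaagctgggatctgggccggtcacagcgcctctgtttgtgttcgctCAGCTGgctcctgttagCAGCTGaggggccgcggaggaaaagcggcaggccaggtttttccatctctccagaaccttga

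All 8 leading distal regions read for sequence held an E-box, as did 81.2% of the 3601 distal steps of the same loci, which is near that background. TAATTA was in 1 of 8 (8.39% of steps), the forkhead motif in 1 (3.83%) and the T-box motif in 2 (20.4%).

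Promoters were compared across the list next. All 9 were higher in clusters 1 and 3, beside 16.8% of 15593 promoters tested, and the median log2 difference was 2.85 beside 0.19 over all. The E13.5 sum of cluster 11 held 0 fragments at 8 of these promoters, all but Twist1, so the fitted values there depend on the prior count of the fit. Without cluster 11 all 9 were called, beside 8.86%, and the medians were 2.16 and 0.02. In 6 of the 9, all but Prrx1, Prrx2 and Meox1, every sum of cluster 1 lay above every sum of the other 8 clusters, beside 0.776% of all promoters. Over the gene window this held for Twist1, Prrx1, Prrx2 and Pdgfra, beside 0.518% of all genes. At the 6 promoters the E12.5 sum of cluster 1 held 2 fragments for Tbx15, 5 for Foxc2 and 6 each for Twist2 and Pdgfrb. It held 8 for Pdgfra and 20 for Twist1.

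**Figure D3:**
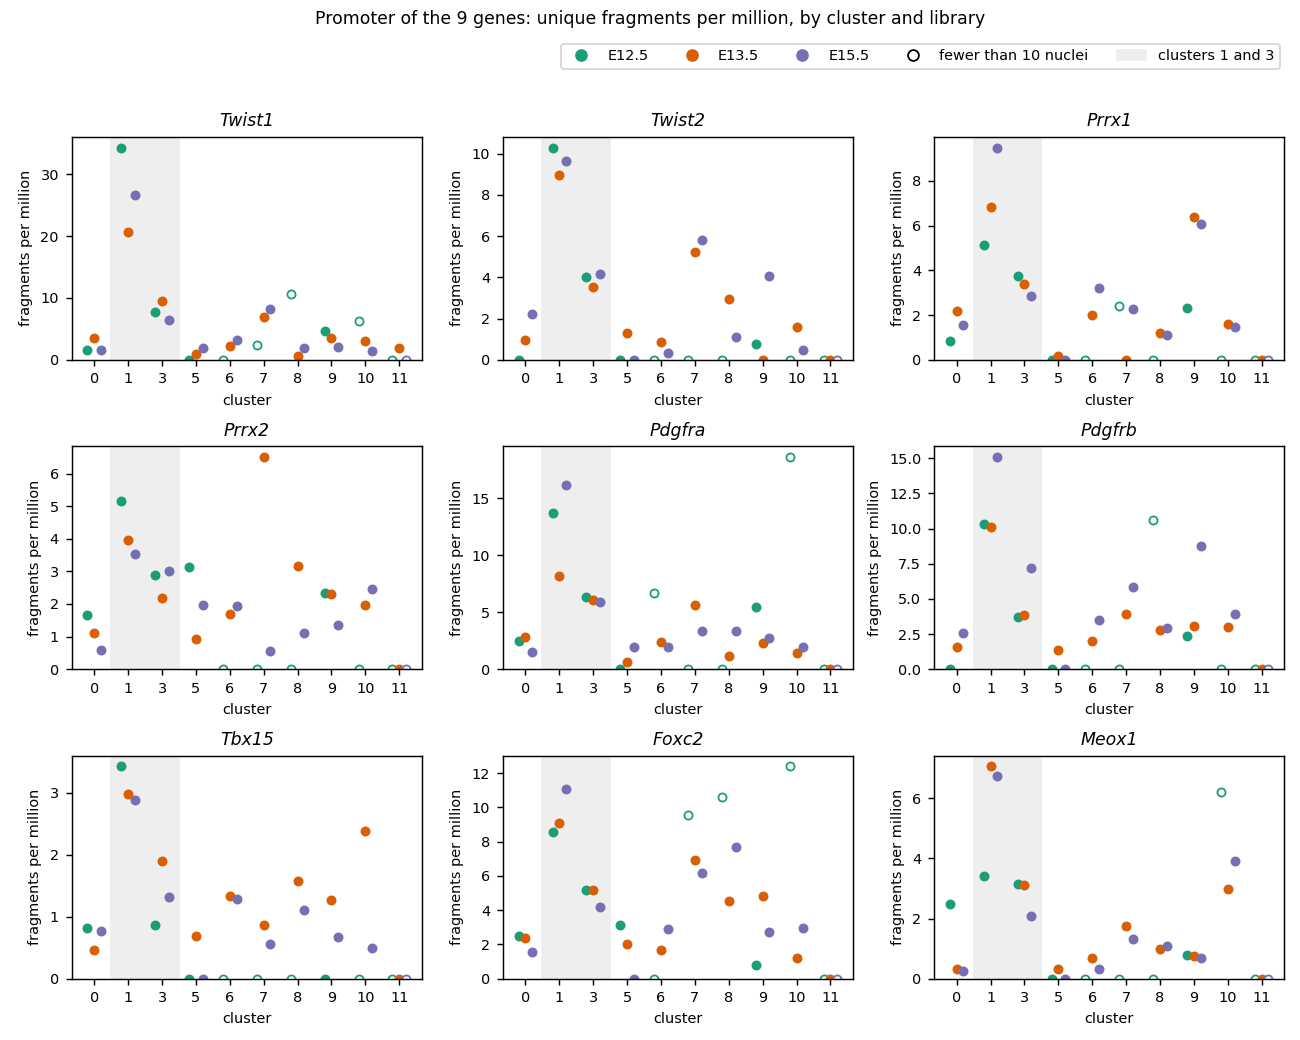
Level in CPM in the promoter of each gene (vertical axis) in the 10 clusters (horizontal axis), 1 point per library coloured by stage, open where fewer than 10 nuclei were summed. Scaled to all fragments, as here, cluster 1 stands above cluster 3 for all 9 genes. Scaled to fragments at promoters, the ratio of cluster 1 to cluster 3 ran from 0.779 to 1.39.

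**Figure D4:**
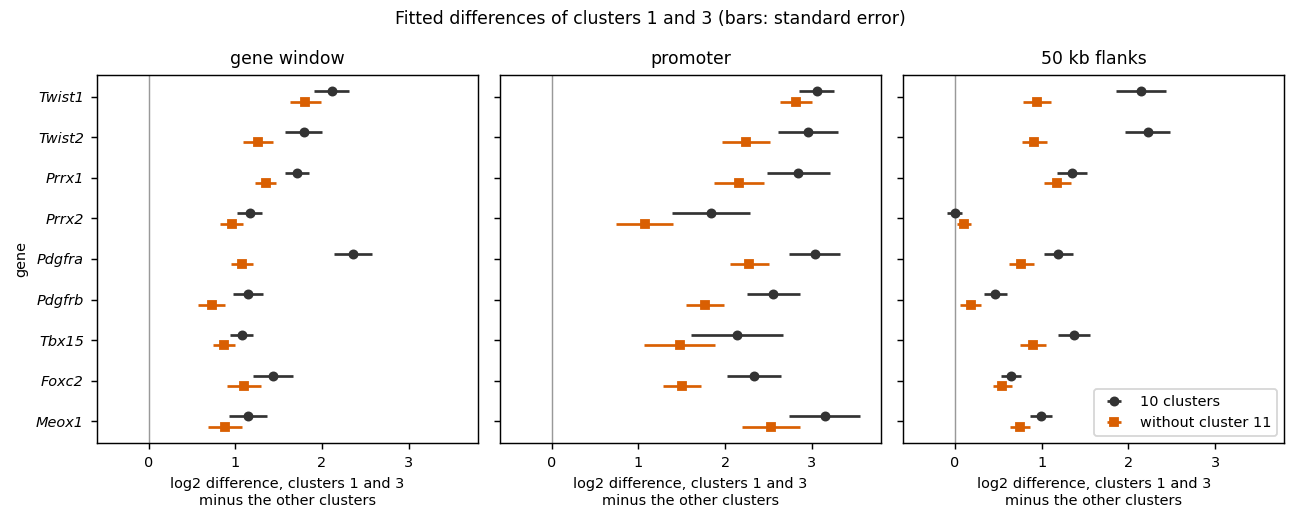
Fitted log2 difference of clusters 1 and 3 minus the other clusters (horizontal axis) for each gene (vertical axis) in the 3 windows, with bars of 1 standard error. Circles use the 10 clusters and squares leave out cluster 11. Pdgfra in the gene window and Twist1 and Twist2 in the flanks move most.

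The flanks of 8 of the 9 genes were higher in clusters 1 and 3, beside 17.5% of 21113 genes tested. Twist2 (2.22 ± 0.26, adjusted p = 3.30e-08, edgeR) and Twist1 (2.14 ± 0.29, adjusted p = 4.64e-07) led on the log2 scale, but the E13.5 sum of cluster 11 held 0 fragments at both (up to 5.81 CPM by the limit of 3 counts), so these values depend on the prior count of the fit, and without it their values were 0.91 ± 0.14 and 0.94 ± 0.16. The flanks of Prrx2 did not pass the test: the log2 difference was -0.0017 ± 0.0873 (adjusted p = 0.990), with 179 CPM in clusters 1 and 3 and 174 in the rest. They hold 4 other genes, Asb6, Ntmt1, Ptges and 1700001O22Rik. Some flanks that passed hold other genes too: Foxf1, Foxl1 and Mthfsd for Foxc2, Ferd3l for Twist1 and Wars2 for Tbx15. Some fragments over Foxf1 therefore count both in the Foxc2 flanks and in the Foxf1 result below. The flanks of Pdgfrb, which hold Csf1r, Cdx1, Hmgxb3 and Slc6a7, had a log2 difference of 0.46 ± 0.13 (adjusted p = 0.00771) that was lost without cluster 11 (0.18, adjusted p = 0.397). Without cluster 11, 7 of 9 were called, beside 4.82% of all genes. Without E13.5 the flanks of 2 genes, Prrx1 and Twist2, were called, beside 0.266% of all genes. Without E12.5 it was 8 of 9, beside 19.9%, and without E15.5 it was 7 of 9, beside 8.95%.

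Clusters 1 and 3 were compared with each other. Over the gene window 0 of 9 genes were called different in edgeR, beside 0.579% of all genes and with 2, Twist1 and Prrx2, at an unadjusted p below 0.05. Twist1 came closest, with a log2 difference of cluster 1 minus cluster 3 of 1.04 ± 0.30 (adjusted p = 0.0724, edgeR), and 1.05 without cluster 11 (adjusted p = 0.0660). DESeq2 called Twist1 (1.00 ± 0.28, adjusted p = 0.0192), and so did edgeR with 1 barcode per linked group (adjusted p = 0.0427) and with total fragments as the library size (adjusted p = 0.0138), beside 4.58%, 2.11% and 5.65% of all genes called under these settings. The other 8 differences lay between -0.03 and 0.47.

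At promoters the answer depended on the scale. Scaled to all fragments of the nuclei, cluster 1 was 1.55 to 2.77 times cluster 3 for the 9 genes. Scaled to fragments at promoters, the ratio ran from 0.779 to 1.39. In edgeR with its TMM factors, which centre on the bulk of promoters, 0 of 9 were called, beside 0.436% of all promoters, with Twist1 alone at an unadjusted p below 0.05 (log2 difference 0.78 ± 0.26, adjusted p = 0.115). DESeq2 called 0 of 9 as well. With total fragments as the library size, a choice made after seeing the data, 7 of 9 were called higher in cluster 1. The median of all promoters then moved from -0.02 to 0.83, and 7786 of 15416 were called higher. For clusters 1 and 3 against the rest, this scaling moved the median of all genes from 0.12 to -0.03 in the gene window and changed the calls from 3373 higher and 1539 lower to 2288 higher and 3918 lower, while all 9 genes were still called higher, beside 11.6% of all genes. At promoters it moved the median from 0.19 to -0.27 and the calls from 2620 higher and 580 lower to 1152 higher and 5651 lower, and all 9 were again called higher, beside 7.47%.

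Levels of different genes were compared per kb of gene window in cluster 1. The order was Twist1 with 7.70 CPM per kb, Foxc2 with 4.01, Meox1 with 2.20, Prrx2 with 1.99, Pdgfra with 1.75, Pdgfrb with 1.57, Twist2 with 1.29, Prrx1 with 1.21 and Tbx15 with 0.734. Twist1 and Foxc2, which ranked highest, have the shortest windows, 4159 and 4725 bp.

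Stages were compared within clusters 1 and 3, as ratios of single libraries with exact 95% intervals. In cluster 1 the E15.5 level was above the E13.5 level for Pdgfra (1.40, 1.25 to 1.56), Pdgfrb (1.34, 1.18 to 1.52) and Tbx15 (1.22, 1.09 to 1.36). Prrx1 was lower (0.861, 0.767 to 0.967), and the intervals of the other 5 genes included 1. Over all genes, 16.9% had an interval above 1 and 14.2% one below, so single ratios of this size were common. In cluster 3 no gene had an interval above 1, beside 14.5% of all genes, and those of Prrx2 (0.798, 0.702 to 0.904), Twist1 (0.755, 0.570 to 0.989) and Twist2 (0.834, 0.714 to 0.972) lay below, beside 14.1% of all genes. From E12.5 to E13.5 the intervals of Meox1 (1.79, 1.36 to 2.39), Prrx2 (1.28) and Tbx15 (1.28, 1.09 to 1.52) lay above 1 in cluster 3, beside 19.9% of all genes. In cluster 1 that of Twist2 did (1.73, 1.13 to 2.79), beside 8.68%. No interval lay below 1, beside 12.2% of all genes in cluster 3 and 9.64% in cluster 1, where Twist1 had the lowest ratio (0.663, 0.442 to 1.04). None of these has a replicate check, and in E15.5, 138 of 756 nuclei carried barcodes linked by identical fragments (10% or more in common) to others. Keeping 1 barcode per linked group left 112 of 120 E15.5 nuclei in cluster 1 and 50 of 50 in cluster 3.

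The genes were also counted nucleus by nucleus, after thinning each nucleus to 10000 fragments. In cluster 1, 23.1% of 251 nuclei had a Twist1 fragment (exact interval 18 to 28.8%), 51.8% a Prrx1 fragment and 48.6% a Pdgfra fragment. In cluster 3 these shares were 14.4%, 39.4% and 40.9% of 208 nuclei, above the 8 clusters outside 1 and 3, though the exact intervals overlapped those of the next cluster. For 4 other genes the share of cluster 3 was not above that of every remaining cluster. Tbx15 was found in 37.5% of cluster 3 and 50.7% of cluster 10, Prrx2 in 40.9% and 45.3%. Pdgfrb was found in 34.6% of cluster 3 and 34.8% of cluster 8, Meox1 in 18.8% and 19.6%. Here the intervals overlapped as well. In erythroid-like cluster 5, which should lack these genes and had a similar median depth of 59054.5 fragments, they were 2.23% (0.612 to 5.62%), 8.38% and 11.2% of 179 nuclei. Without thinning, Twist1 fragments were in 70.6% of cluster 1 and 12.4% of cluster 5. Thinning left out 4, 0 and 7 nuclei of clusters 1, 3 and 5.

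The number of the 9 genes with a fragment was also counted in each nucleus. After thinning, 74.9% of cluster 1 nuclei had fragments at 3 or more of the 9 genes, with a mean of 3.63 genes, and 58.2% of cluster 3, with a mean of 2.74. Muscle-like cluster 10 followed with 40.0% and cluster 7 with 33.7%, while cluster 5 had 8.38% and cluster 11 had 0 of 30 nuclei. These counts were not compared with what the single-gene shares would give. They therefore do not show that the genes open together in a nucleus. Doublets were not removed, and 1 barcode string occurred in both E13.5 and E15.5.

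**Figure D5:**
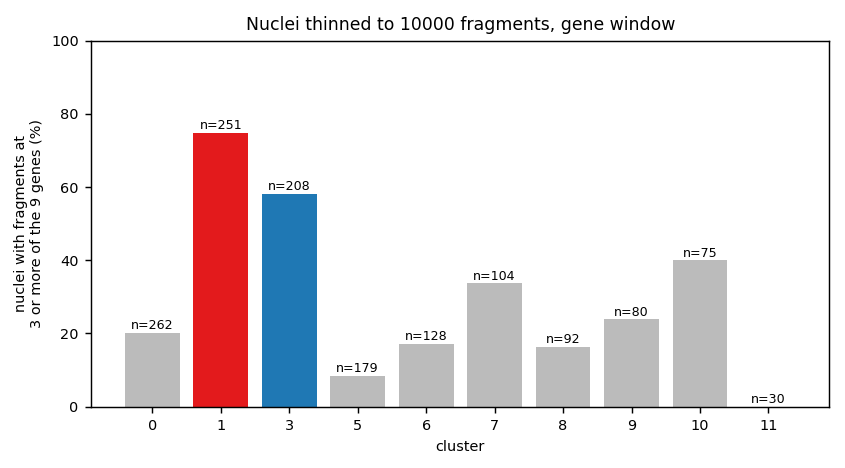
Share of nuclei with fragments in the gene windows of 3 or more of the 9 genes (vertical axis, percent) in each cluster (horizontal axis), after thinning to 10000 fragments, with the number of nuclei above each bar. Cluster 1 reaches 74.9% and cluster 3 58.2%.

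Across the 10 clusters the genes followed each other, with Pearson's r of log2 levels from 0.660 (Prrx1 and Meox1) to 0.937 (Twist1 and Prrx1) and a median of 0.827 over 36 pairs. The points share libraries and depth, and every gene had its lowest level in cluster 11. The r of all other gene pairs, as a background, was not computed. The genes most like each member by r over the same 10 clusters were Col5a2 (0.981) for Twist1, Pdzd2 (0.987) and Scara5 (0.983) for Twist2, and Adamts2 (0.972) and Osr2 (0.971) for Prrx1. For Prrx2 they were Mrgprf (0.959) and Col6a3 (0.957), for Pdgfra Osr1 (0.989) and Wnt5a (0.987), and for Pdgfrb Hvcn1 (0.998) and Cpxm1 (0.988). For Tbx15 they were Trpm4 (0.977) and Stbd1 (0.966), for Foxc2 Arhgap31 (0.949) and Gm12830 (0.940), and for Meox1 Acoxl (0.958) and Musk (0.958). Col5a2 and Col6a3 encode collagens, Osr1 and Osr2 are zinc finger factors of mesenchyme, and Musk is a receptor of the neuromuscular junction. The others, among them Hvcn1 with the highest r, are not described here.

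Related genes were read from fixed lists in the gene window. Of 22 other mesenchyme transcription factors, 19 were higher in clusters 1 and 3 and 0 lower, with a median log2 difference of 1.06 beside 0.12 over all genes. Without cluster 11, 16 were higher and the medians were 0.73 and -0.02. At promoters 19 of 21 were higher, and 16 of 20 without cluster 11, beside 16.8% and 8.86% of all promoters. Over all genes 17.1% were called higher, and 5.32% without cluster 11, which are also the shares beside the lists that follow. Osr1 (2.37 ± 0.29, adjusted p = 8.31e-08, edgeR), Meox2 (2.17 ± 0.30, adjusted p = 7.68e-07), the paralog of Meox1, and Foxf1 (2.14 ± 0.38, adjusted p = 4.75e-05), the neighbour of Foxc2, led the list. Without cluster 11 these were 1.30, 1.05 and 1.12. Zeb1 (0.46, adjusted p = 0.0198) was the smallest called difference and was lost without cluster 11 (-0.02, adjusted p = 0.947).

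Among E proteins, other helix-loop-helix partners and the inhibitors of this family, 6 of 9 were higher over the gene window, but 1 of 9 without cluster 11, beside 5.32% of all genes. At promoters 7 of 9 were higher, and 5 of 8 without cluster 11, beside 16.8% and 8.86% of all promoters. Those 5 were Id1, Id2, Id3, Id4 and Hand2, of which Id1 and Id4 are named after their values were seen. The gene called in both gene window fits was Id3, an inhibitor of E proteins, with 1.18 ± 0.17 (adjusted p = 2.56e-06, edgeR) and 0.93 without cluster 11. Hand2 (1.70, adjusted p = 0.00268) and Id2 (1.67, adjusted p = 0.000113) had larger values that were lost without cluster 11, at 0.75 (adjusted p = 0.0569) and 0.43 (adjusted p = 0.0816). Their promoters were still called without it, at 1.5 (adjusted p = 0.00562) and 0.75 (adjusted p = 0.0277). The E protein gene Tcf12 had the smallest called difference, 0.36 (adjusted p = 0.0312), and -0.0021 without cluster 11 (adjusted p = 0.995).

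Of the 4 ligand genes of the PDGF receptors, Pdgfd was higher (0.42 ± 0.14, adjusted p = 0.0203, edgeR), and 0 of 4 were called by edgeR without cluster 11, 0 also at an unadjusted p below 0.05, where Pdgfd had 0.15 (adjusted p = 0.556). Of 7 somite and sclerotome factors, 4 were higher, Pax1 (2.07 ± 0.29), Pax9 (2.04 ± 0.30), Pax3 (1.86 ± 0.33) and Nkx3-2 (1.63 ± 0.45), the last named after its value was seen. Pax1, Pax9 and Pax3 were still called without cluster 11, at 0.95, 0.90 and 0.57, and Nkx3-2 was not (0.63, adjusted p = 0.152). At promoters 5 of 7 were higher, beside 16.8% of all promoters. Without cluster 11, edgeR called 2 of 7, Pax9 (1.45, adjusted p = 0.00691) and Nkx3-2 (1.09, adjusted p = 0.0464), beside 8.86%.

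Marker genes of other cell types were read beside these results in the same test, over the gene window unless promoters are named. The 10 mesenchyme markers outside the list were all higher, with and without cluster 11, and their summed level was 677 CPM in cluster 1, 494 in cluster 3 and 83.3 to 481 in the other clusters. Chondrocyte genes were higher in 4 of 5 cases, osteoblast genes in 2 of 4, endothelial genes in 2 of 7 and epithelial genes in 2 of 6. Without cluster 11 these counts were 1, 2, 1 and 0. The endothelial and epithelial counts lie near the 17.1% and 5.32% of all genes called higher. At promoters the chondrocyte count was 4 of 5, osteoblast 2 of 3, endothelial 1 of 5 and epithelial 0 of 6, beside 16.8%. Promoter counts without cluster 11 were 3 of 5, 0 of 2, 1 of 4 and 0 of 6, beside 8.86%. Over the gene window erythroid genes were lower in 3 of 6 cases and neuron genes in 1 of 6, beside 7.81% of all genes called lower. Without cluster 11, itself erythroid-like, these counts were 2 and 1, beside 1.72%, and 1 of 6 neural progenitor genes, Pax6 (-0.66, adjusted p = 0.00206, edgeR), was lower. Of the muscle, neural progenitor, hepatocyte, white blood cell, Schwann and neural crest, and oligodendrocyte lists, edgeR called 0 genes higher over the gene window. At an unadjusted p below 0.05 there were 0 of 6, 1 of 6, 1 of 5, 1 of 5, 1 of 5 and 0 of 2 higher. At promoters 1 of 6 muscle and 1 of 6 neural progenitor genes were called higher, beside 16.8% of all promoters, and 0 without cluster 11. The hepatocyte, white blood cell, Schwann and neural crest, and oligodendrocyte promoters had 0 in both. The part of these cell types in the levels of the 9 genes was not tested.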

How the data were processed

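Nuclei of 3 libraries were read from the deposited fragment files and the deposited table of nuclei, whose cluster numbers were used as given. Per the labels and the submitters' processing notes, the authors aligned reads to mm10 and called fragments with Cell Ranger ATAC 2.0.0, then clustered with Seurat 4.1.0 and Signac 1.6.0. From these files, whole-number counts of unique fragments were summed per GENCODE vM21 gene, cluster and library. Of 21938 protein-coding genes, 79 Pcdh and Ugt genes and 231 longer than 500 kb were among those left out, and 21602 remained. The other 20 columns of the table were not used. Read counts per fragment, also deposited by the authors, were ignored.

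The 24 sums of at least 10 nuclei were fitted with edgeR 4.0.16 in R 4.3.3 (quasi-likelihood test, TMM, low counts filtered, cluster and library as terms, 12 residual degrees of freedom), with Benjamini-Hochberg adjustment over all genes and a threshold of 0.05. DESeq2 1.42.0 was an alternative. The p-values measure only the spread between these sums, which edgeR estimates in part from all genes together. At promoters they rest almost wholly on that shared estimate and hardly on the gene's own spread. On simulated data for the gene window comparison (19275 genes), 89.9% of genes raised 2-fold and 72.2% of genes lowered to 0.5 were recovered, and 0.0367% of unchanged genes were called. Exact 95% intervals cover counting error only. Doublets were not called.

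The 9 genes and the gene lists were chosen with earlier results of these data known. All 9 are named, with the 2 genes most like each by Pearson's r of log2(CPM + 1) over the 10 clusters (1 of them is not reported here), and list genes called and among the 3 largest or smallest differences. Lists were mesenchyme transcription factors, E-box partners and inhibitors, PDGF ligands, somite and sclerotome factors, and cell type markers. Sequences are from RefSeq (GRCm38.p6); Pdgfrb, Tbx15, Foxc2 and Meox1 have no promoter sequence here.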

Additional observations from a re-analysis of the deposited data

Results flagged for a closer look

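The 9 gene windows also held fragments in barcodes and clusters that no comparison used. Summed over the 9 genes, barcodes outside the table of nuclei with at least 1000 fragments had 271, 266 and 241 CPM in the E12.5, E13.5 and E15.5 libraries. Cluster 2, left out of all tests, had 247 CPM and cluster 4 had 220. These values lie near the 241 CPM of the other 8 clusters and below the 572 of cluster 1 and the 409 of cluster 3, and all exceed the level of 3 counts, which was at most 15 CPM.

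The flank ratio of Prrx2 lay below 1 at the earlier stages and above 1 at E15.5, but only the E15.5 interval left out 1. Clusters 1 and 3 over the rest gave a ratio of 0.926 (exact interval 0.822 to 1.04) in E12.5. In E13.5 it was 0.983 (0.946 to 1.02), and E15.5 gave 1.17 (1.11 to 1.23). With only the sums of at least 10 nuclei the E12.5 ratio was 1.01 (0.886 to 1.15). Each stage is 1 library, and the difference between stages was not tested.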

How the results depend on the processing

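Over the gene window and the promoter, 7 to 9 of the 9 genes were called under every alternative run, with the Tbx15 promoter tested in 14 of 16. The share of all genes called higher ran from 158 of 18812 without E13.5 to 3848 of 19868 with at least 20 nuclei per sum. For all promoters it ran from 315 of 12088 without E13.5 to 3133 of 15593 with edgeR's RLE factors. E13.5 decided several calls: without it the flanks of 2 genes were called, beside 0.266% of all genes (8 without E12.5, beside 19.9%, and 7 without E15.5, beside 8.95%), Foxc2 and Meox1 were lost over the gene window, and the Tbx15 promoter passed no filter on low counts. The number of all genes called higher (3373) was 158 to 3689 when 1 library was left out, 1919 without E15.5, 1573 for cluster 1 alone, 1022 without cluster 11 and 1115 with 1 sum per group and library. Between clusters 1 and 3, 1 gene of 9 (Twist1) was called over the gene window by DESeq2, with 1 barcode per linked group and with total fragments as library size, beside 4.58%, 2.11% and 5.65% of all genes (0.579% in edgeR as reported). With that last scaling 7 of the 9 promoters were called, beside 7786 called higher and 38 called lower among all 15416 promoters tested. The cause was not tested.

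Values near 0 changed sign. The Prrx2 flank difference was 0.0024 with at least 20 nuclei, -0.0049 to 0.12 when 1 library was left out, 0.0138 without the deepest 5% of nuclei, 0.0305 when linked barcodes were reduced to 1, 0.11 for cluster 1 alone, 0.10 without cluster 11 and 0.11 with 1 sum per group. For cluster 1 minus cluster 3, Twist2 was -0.0012 in DESeq2, -0.0714 to 0.30 with 1 library left out and -0.0118 without the deepest nuclei. Pdgfrb was 0.0339 with at least 20 nuclei, -0.19 to 0.0506 with 1 library left out, 0.0019 for linked barcodes reduced to 1 and 0.16 with total fragments. At promoters, with edgeR's RLE factors and DESeq2, Pdgfra was -0.0348 and -0.0310, Tbx15 -0.0129 and -0.0173, and Foxc2 -0.0383 and -0.0404. With 1 library left out Prrx1 was -0.14 to 0.45, Pdgfra -0.25 to 0.32 and Foxc2 -0.14 to 0.20, the lowest without E15.5, and Prrx2 was 0.65 with total fragments against -0.22. With only the sums of at least 10 nuclei, the E12.5 ratio of Foxc2 moved to 2.22 and that of Meox1 to 1.61 over the gene window. The Pdgfrb flank call was lost in 5 of 15 alternatives. No paired analysis was possible because each stage, the group in the labels, has 1 library. Clusters are paired within libraries, and the library was a term of each fit. With 1 sum per group and library all 9 genes were called over the gene window and the promoter. Beside them, 1115 of 20156 genes and 755 of 15707 promoters were called higher.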
